A study of Homo sapiens with 4 samples.

Results

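The proteasome and immunoproteasome subunit genes were taken as every row of the expression table whose symbol is PSM, a letter from A to G and a number. This gave 48 of 18840 genes, and 46 of the 48 reached the level needed for comparison, which was 1 CPM or more on average (12484 genes in all). CPM gives the reads of a gene scaled to a common library size, with TMM factors for the make-up of each library. The 48 comprised 31 constitutive subunits (7 alpha and 7 beta subunits of the core particle, 9 base and 8 lid subunits of the regulatory cap) and 5 genes of the immunoproteasome, PSMB8, PSMB9, PSMB10, PSME1 and PSME2. The remainder were 3 assembly chaperones of the cap, 4 of the core, 3 other activators or inhibitors and 2 tissue-restricted subunits.

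Poly(A) RNA was sequenced from MCF10A, an immortalised, non-tumorigenic human mammary epithelial line of basal type. The cells stably carried a pBabe retroviral construct, with no insert, with GFP, with miR-105 (a microRNA) or with MYC (a transcription factor). The medium of all 4 lines was DMEM/F12, to which hydrocortisone, cholera toxin, EGF, insulin and horse serum had been added. There was 1 library per construct, so no difference below has a replicate check, and the design sets miR-105 and MYC each beside the empty vector and GFP as separate controls.

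The proteasome degrades proteins tagged with ubiquitin. Its barrel-shaped core particle is built of stacked rings of alpha and beta subunits, with 3 kinds of proteolytic beta subunit facing the inner chamber, and the regulatory cap binds, unfolds and feeds in the substrate. In cells exposed to interferon gamma, and in immune cells without it, newly made cores take PSMB8, PSMB9 and PSMB10 in place of the catalytic subunits PSMB5, PSMB6 and PSMB7, and the activator formed by PSME1 and PSME2 can replace the cap. The products of these immunoproteasomes include peptides for loading onto MHC class I molecules.

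MYC mRNA, read as a check of the labels, was highest in the library labelled miR-105, at 463 CPM. The library labelled MYC had 232 CPM, against 207 (vector) and 198 (GFP) in the controls. The MYC label was thus not borne out by its own mRNA, and both expression lines are called by their labels throughout. Library totals ran from 6859698 reads (miR-105) to 14025115 (GFP). All 6 basal epithelial markers passed the level filter, with sums of 9784, 7951, 5984 and 6464 CPM in the vector, GFP, miR-105 and MYC libraries. These sums hide differences in opposite directions. KRT17 stood at 6927, 5131, 766 and 1777 CPM, and KRT5 at 1757, 1614, 4654 and 4138 CPM. In the library labelled MYC, CDH1 lay at 183 CPM (549 and 768 in the controls) and TP63 at 77.2 (7.14 and 14.4). Of 10 leukocyte markers only CD68 and CD14 passed, and the list summed to 29.8, 24.3, 22.6 and 20.7 CPM in that order. HLA-DRA and MS4A1 had 0 reads in all 4 libraries, and PTPRC had 0, 1, 0 and 0 reads. ITGAM (2, 0, 0 and 23 reads) and CD74 (1, 1, 1 and 8 reads) were highest in the library labelled MYC. The 5 fibroblast markers summed to 98.5, 141, 102 and 19.8 CPM, and only FAP and COL1A1 passed the filter. FAP stood at 84.97, 126, 90.2 and 2.56 CPM. COL1A1 went the other way and was highest in the library labelled MYC, at 12.5, 14.4, 9.72 and 16.5 CPM. The low sum in that library thus lay in FAP, and the part of this difference in the results was not tested. In bulk RNA, fewer cells of a type and less RNA per cell cannot be told apart.

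The immunoproteasome genes lie in a pair of clusters and at a separate site. On GRCh38 with the GENCODE 29 annotation, PSMB8 is at chr6:32840717-32844703 on the minus strand and PSMB9 at chr6:32844136-32859585 on the plus strand, so that their ends overlap by 568 bases. TAP1, which encodes a subunit of the peptide transporter, lies within the span of PSMB9 on the minus strand. PSME1 (chr14:24136158-24138967, plus strand) and PSME2 (chr14:24143362-24147570, minus strand) are 4394 bases apart, and PSMB10 is at chr16:67934502-67937087 on the minus strand. Whether reads were counted by strand is not given, so those from the overlap of PSMB8, PSMB9 and the antisense gene PSMB8-AS1 cannot be told apart, nor can those of PSME1 from EMC9 or PSME2 from RNF31.

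A shared sequence feature of the immunoproteasome genes was sought in RefSeq promoters (GRCh38.p14), taken from 250 bases before to 50 bases after each annotated start, on both strands. The interferon response motif, GAAA repeated after a spacer of 2 bases, which factors of the IRF and STAT families can bind, was found for 4 of 5 immunoproteasome genes and 2 of 26 constitutive subunits (PSMA4 and PSMB4). It was present for 4.38% of all 27305 genes in the promoter table, which held 42 of the 48 members. A gene counted if any of its promoters had a match. The windows are printed because the genes that carry them are those set against the constitutive subunits below. Each is written on the strand that reads GAAA, with a match in capitals.
PSMB8 (chr6:32844032-32844061, plus strand): aggaggaagtGAAAGCGAAAgccacagatc
PSMB10 (chr16:67936852-67936881, minus strand): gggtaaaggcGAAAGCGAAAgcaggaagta
PSME1 (chr14:24136189-24136218, minus strand): accgcgaaggGAAAGCGAAAgcggtagggc
PSME2 (chr14:24146619-24146648, minus strand): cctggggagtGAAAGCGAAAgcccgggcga
TAP1 (chr6:32853813-32853842, plus strand): ccatttagggGAAAGCGAAAtcgaaagcgg

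The capitals read GAAAGCGAAA in each of the 5 windows. The TAP1 window also holds a match that overlaps the one in capitals and reads GAAATCGAAA, from -134 to -125 of the TAP1 start. PSMB9 had no match in its own window, and the TAP1 window is shown because that gene lies inside the PSMB9 locus. Relative to the annotated start, the match ran from -4 to 5 in PSMB8, from 5 to 14 in PSME1, from -28 to -19 in PSME2 and from -21 to -12 in PSMB10. The antioxidant response letters TGACNNNGC were found for 3 of 5 immunoproteasome genes (PSMB9, PSME1 and PSME2) and 7 of 26 constitutive ones. In all they were found for 15 of 42 members, against 16.1% of all genes in the promoter table. The CCAAT box was found for 1 of 5 immunoproteasome genes (PSMB9), 15 of 26 constitutive ones and 20 of 42 in all, against 39.7%. The E-box CACGTG, to which MYC with MAX can bind, was in 3 of 42 (PSMB3, PSMD9 and PSME3) against 8.77% of all. The gamma activated letters TTCNNNGAA were in 8 of 42 against 9.38%, and the kappa B motif (GGG and CC with 5 bases between them) in 31 of 42 against 61.7%. No difference between the motifs was tested, and a match is a description of these letters and not a bound site.

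**Figure D1:**
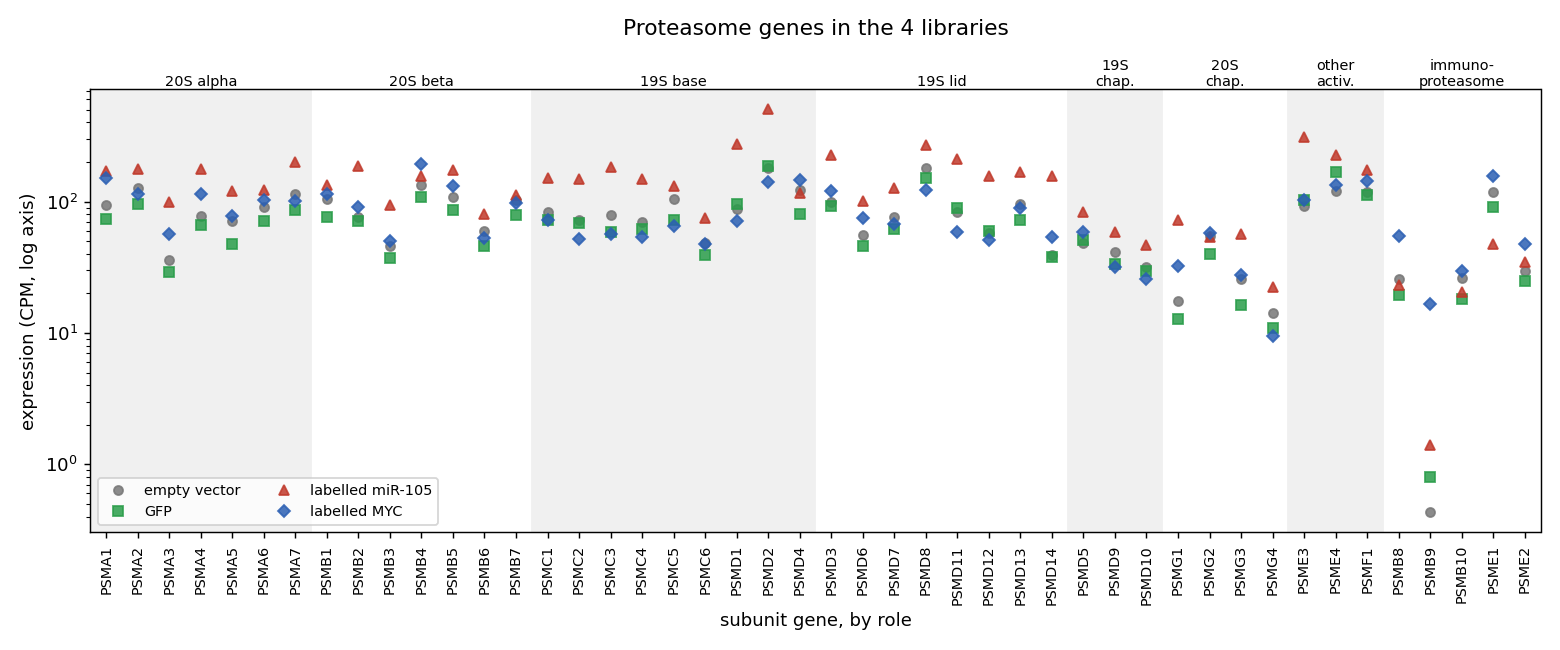
Expression (CPM, log axis) of the 46 proteasome genes that passed the level filter, grouped by role, with 1 point per library. The library labelled miR-105 was the highest for most constitutive subunits, while the library labelled MYC was the highest for all 5 immunoproteasome genes, PSMB9 reaching 16.7 CPM there.

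Summed over the members, the vector, GFP, miR-105 and MYC libraries held 3543, 3050, 6374 and 3723 CPM, that is 0.359%, 0.301%, 0.592% and 0.401% of the reads. In the library labelled miR-105, 28 of 46 members were at least 1.5-fold higher than in both controls, a threshold that 24% of all genes tested passed, and 1 member, PSME1, was at least 1.5-fold lower, as were 24.7% of all genes. In the library labelled MYC, 6 of 46 were higher and 0 lower, against 16.6% and 17.2% of all genes. The members called in the library labelled MYC were led by PSMB9, PSMB8 and PSMG1, and those called in the library labelled miR-105 by PSMG1, PSMD14 and PSME3.

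The 31 constitutive subunits had a median fold of 2.01 (median log2 1.01) in the library labelled miR-105 and 1.07 (log2 0.10) in the library labelled MYC. The 5 immunoproteasome genes had medians of 1.03 (log2 0.038) and 1.74 (log2 0.80). Over all genes tested, the median log2 was 0.0052 and 0.036. Log2 values here and below are of CPM + 0.5, averaged over both controls, and understate the change of low genes.

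Among the alpha subunits of the core, which form its outer rings and gate, 5 of 7 were higher in the library labelled miR-105 and 2 of 7 (PSMA1 and PSMA3) in the library labelled MYC. PSMA3 stood at 35.7 CPM (vector), 28.97 (GFP), 98.8 (miR-105) and 56.9 (MYC). It was 2.77-fold (95% interval of counting error 2.42 to 3.17) higher in miR-105 than in the vector library and 3.41-fold (3.01 to 3.88) higher than in GFP. The corresponding folds in MYC were 1.59 (1.39 to 1.83) and 1.96 (1.73 to 2.23). Thus both expression lines lay above both controls for PSMA3, with miR-105 the highest.

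PSMA1 measured 94.2, 73.7, 170 and 151 CPM in the vector, GFP, miR-105 and MYC libraries, the order used for every set of 4 values below. Its folds in MYC were 1.61 (1.48 to 1.75) over vector and 2.05 (1.90 to 2.22) over GFP, nearly those in miR-105 (1.81 and 2.31). PSMA4 stood at 77.2, 66.0, 178 and 115 CPM, 2.31-fold (2.10 to 2.54) and 2.70-fold (2.47 to 2.95) higher in miR-105, and just under the threshold in MYC at 1.49-fold over vector. PSMA7 stood at 114, 85.9, 199.7 and 102 CPM and PSMA5 at 71.5, 47.5, 120 and 78.2 CPM, both called in miR-105 alone. PSMA2 and PSMA6 were 1.39-fold and 1.34-fold above vector in miR-105 and did not reach the threshold. The alpha medians of the log2 difference were 1.03 in miR-105 and 0.42 in MYC.

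Of the constitutive beta subunits, PSMB2, PSMB3 and PSMB5 were called higher in the library labelled miR-105, 3 of 7, and none in the library labelled MYC. PSMB2, a structural subunit without a catalytic site, stood at 75.9, 71.5, 187 and 91.1 CPM, 2.47-fold (2.24 to 2.71) and 2.62-fold (2.40 to 2.85) higher in miR-105. PSMB5, which carries the chymotrypsin-like activity, stood at 109, 86.0, 173 and 132 CPM, 1.59-fold (1.46 to 1.73) and 2.01-fold (1.85 to 2.18) higher in miR-105. The other catalytic subunits were under the threshold. PSMB6, of caspase-like activity, stood at 59.4, 45.5, 80.0 and 52.9 CPM, and PSMB7, of trypsin-like activity, at 103, 79.1, 111 and 96.8 CPM. PSMB4 stood at 133, 108, 155 and 193 CPM and was the only beta subunit besides the immune ones that was highest in the library labelled MYC, at 1.46-fold (1.36 to 1.57) over vector and 1.79-fold (1.68 to 1.92) over GFP. The beta medians of the log2 difference were 0.62 in miR-105 and 0.30 in MYC.

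The base of the cap, a ring of 6 ATPases with the scaffold proteins PSMD1 and PSMD2 and the ubiquitin receptor PSMD4, had 7 of 9 genes higher in the library labelled miR-105. PSMD2 had the highest CPM of all members averaged over the libraries, though not in MYC, at 180, 185, 503 and 141 CPM, 2.80-fold (2.64 to 2.97) over vector and 2.72-fold (2.58 to 2.86) over GFP in miR-105. PSMD1 stood at 87.6, 96.4, 272 and 70.6 CPM, 3.11-fold (2.86 to 3.39) and 2.83-fold (2.63 to 3.04) higher in miR-105. The ATPase PSMC3 stood at 79.2, 58.2, 182 and 56.8 CPM, 2.30-fold (2.10 to 2.53) and 3.13-fold (2.86 to 3.43) higher. These 3 genes were below both controls in MYC. PSMD1 was there 0.807 times (0.729 to 0.892) its vector level and 0.732 times (0.669 to 0.802) its GFP level, PSMD2 0.786 and 0.762 times, and PSMC3 0.717 and 0.975 times.

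In all, 6 of 9 base genes were below both controls at any size in the library labelled MYC, as were 39.4% of all genes tested, and the base median of the log2 difference was -0.29 there against 1.06 in miR-105. PSMD4 stood apart from the rest of the base. It measured 122, 79.9, 116 and 146 CPM, and was 0.9501 times (0.865 to 1.04) its vector level in miR-105, the only constitutive subunit not above both controls in that library. In MYC it was 1.19-fold (1.10 to 1.29) over vector and 1.82-fold (1.69 to 1.97) over GFP. PSMC5, at 105, 72.9, 132 and 65.3 CPM, was the other base gene under the threshold in miR-105. PSMC1 measured 83.7, 71.8, 151 and 72.4 CPM and was called in miR-105, but the annotation lists 13 pseudogenes of it, whose reads may have been split from it or added to it.

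All 8 lid genes were higher in the library labelled miR-105 and none was called in the library labelled MYC. PSMD14, the enzyme that cuts the ubiquitin chain from the substrate, stood at 39.1, 37.6, 155 and 54.0 CPM, 3.97-fold (3.52 to 4.49) over vector and 4.14-fold (3.72 to 4.61) over GFP in miR-105. In MYC it was 1.38-fold (1.21 to 1.58) and 1.44-fold (1.28 to 1.62) higher, under the threshold. PSMD12 stood at 57.4, 60.2, 156 and 51.4 CPM, 2.71-fold (2.44 to 3.02) and 2.59-fold (2.36 to 2.84) higher in miR-105. PSMD11, which bridges lid and core, stood at 83.7, 88.7, 211 and 58.7 CPM, 2.52-fold (2.30 to 2.76) and 2.38-fold (2.20 to 2.57) higher. Between the vector and GFP libraries these 3 lid genes differed by -0.06 to 0.08 on the log2 scale. PSMD8 stood at 179, 151, 270.1 and 122 CPM and, at 1.51-fold over vector, was the called member closest to the threshold. The lid medians of the log2 difference were 1.11 in miR-105 and 0.034 in MYC.

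The chaperones that assemble the core were split. PSMG1, which with PSMG2 forms a dimer that scaffolds the alpha ring, stood at 17.5, 12.9, 71.8 and 32.1 CPM. It had the largest difference of all members in miR-105, 4.10-fold (3.42 to 4.94) over vector and 5.59-fold (4.69 to 6.68) over GFP, and was also called in MYC at 1.83-fold (1.52 to 2.23) and 2.50-fold (2.08 to 3.01). Its partner PSMG2 stood at 54.4, 40.02, 54.0 and 57.8 CPM and was 0.992 times (0.863 to 1.14) its vector level in miR-105. The members of this dimer thus differed unequally in the same libraries. PSMG3 stood at 25.8, 16.3, 56.8 and 27.6 CPM, 2.20-fold (1.86 to 2.60) and 3.49-fold (2.95 to 4.14) higher in miR-105, and PSMG4, its partner in a second dimer, was also called there.

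Of the chaperones of the base, PSMD5 was called higher in miR-105 at 48.3, 50.9, 83.4 and 59.2 CPM. PSMD9 stood at 41.2, 33.3, 58.3 and 31.9 CPM, and PSMD10 at 31.6, 29.8, 46.9 and 25.7 CPM, 1.49-fold over vector and 1.57-fold over GFP in miR-105 and so just outside the threshold. Neither was called in either library. The tissue-restricted subunits PSMA8, found in testis, and PSMB11, found in the cortex of the thymus, had 2 reads and 1 read in the vector library and 0 in the other libraries.

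**Figure D2:**
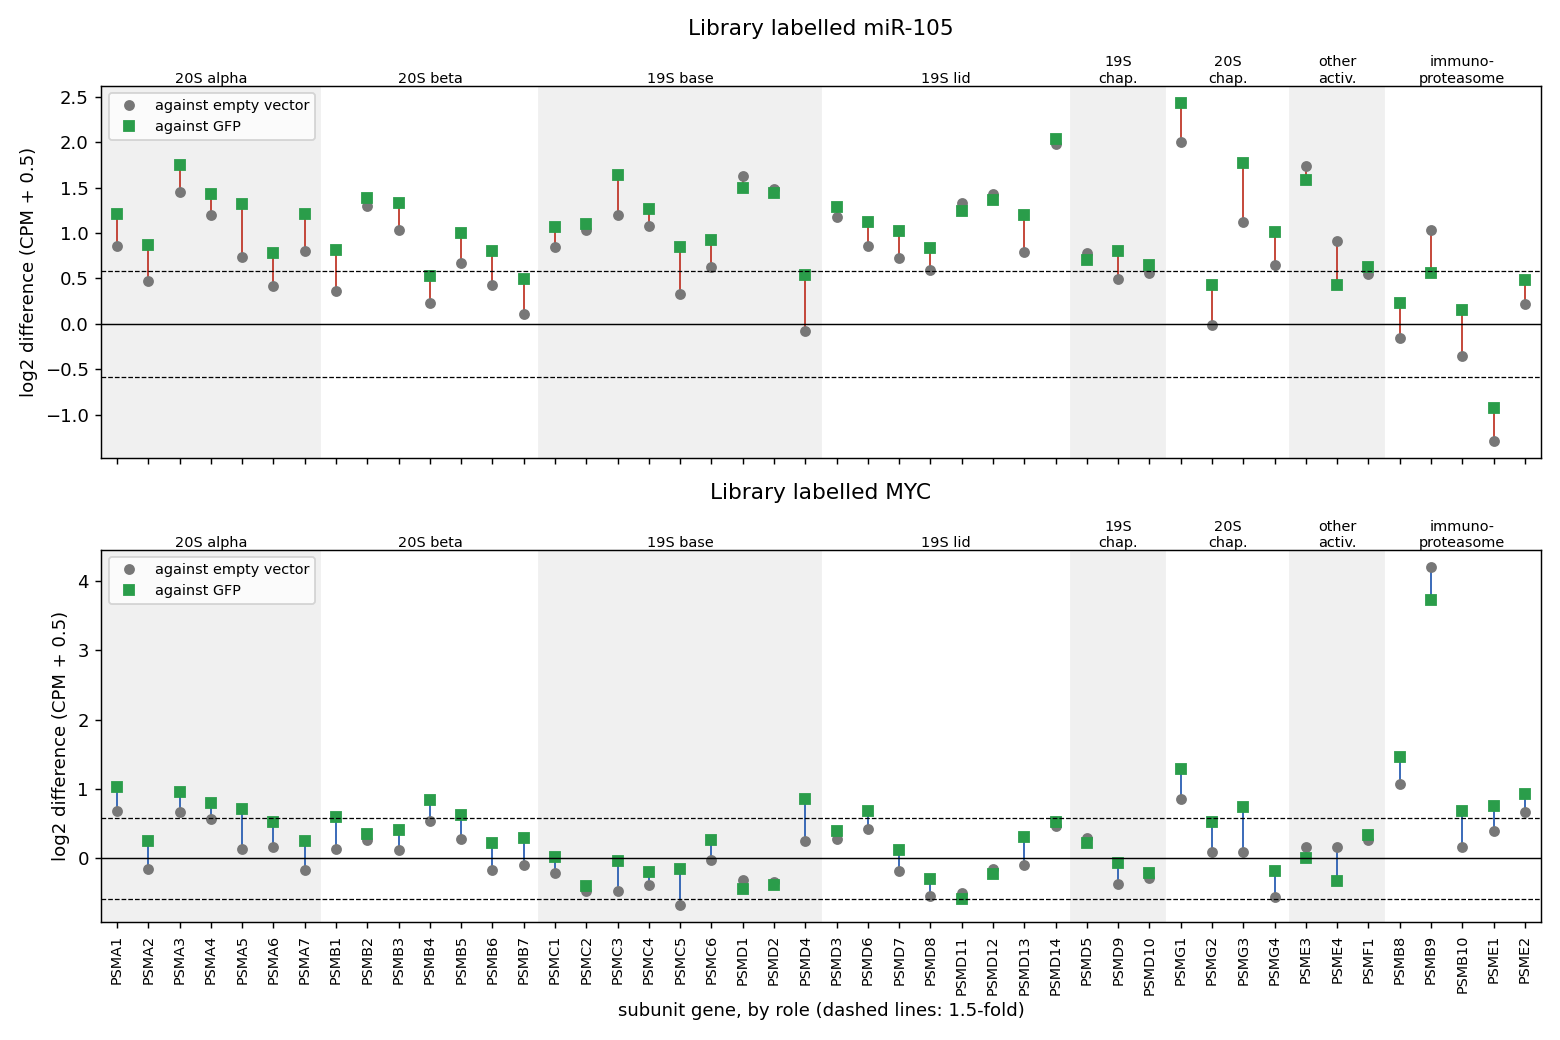
Log2 differences (CPM + 0.5) of each gene in the library labelled miR-105 (top) and MYC (bottom), against the vector library (circles) and the GFP library (squares), with dashed lines at 1.5-fold. In the top panel 28 genes have both points above the upper line and PSME1 alone has both below the lower line. In the bottom panel 6 genes do so above, with PSMB9 at a mean of 3.97.

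The immunoproteasome genes did not follow the constitutive subunits. PSMB9 had 4, 11, 9 and 176 reads, or 0.432, 0.795, 1.41 and 16.7 CPM. The level in MYC was 38.6-fold (14.8 to 143) that of the vector library and 21.0-fold (11.4 to 42.8) that of GFP, and the gene passed the level filter only through that library. In miR-105 its ratio of 3.26 (0.911 to 14.5) to vector could not be told from 1 at this depth. PSMB8 stood at 25.7, 19.6, 23.1 and 54.8 CPM, 2.13-fold (1.83 to 2.49) and 2.80-fold (2.42 to 3.25) higher in MYC. In miR-105 it lay between the controls, at 0.896 times (0.724 to 1.11) vector and 1.18 times (0.957 to 1.45) GFP.

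PSMB10 measured 26.2, 18.3, 20.4 and 29.5 CPM. It was 1.61-fold (1.36 to 1.91) over GFP in MYC but only 1.13-fold (0.9496 to 1.34) over vector, and so was not called. The 3 immune catalytic genes therefore did not move by one amount: PSMB9 was near absent outside the library labelled MYC, PSMB8 was present throughout and more than doubled there, and PSMB10 stayed close to the range of the controls.

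The activator genes PSME1 and PSME2 also parted. PSME1 stood at 118, 91.6, 47.8 and 155 CPM, and the vector and GFP levels were 2.46-fold (2.17 to 2.80) and 1.91-fold (1.69 to 2.18) the miR-105 level. It was the only member called lower in any comparison with both controls. In MYC it was 1.32-fold (1.22 to 1.43) over vector and 1.695-fold (1.57 to 1.83) over GFP. PSME2 stood at 29.7, 24.7, 34.7 and 47.6 CPM, called in MYC at 1.601-fold (1.38 to 1.86) and 1.93-fold (1.68 to 2.22), and in miR-105 1.17-fold (0.972 to 1.40) over vector. In miR-105 the level of PSME1 thus lay below and that of PSME2 above both controls. The annotation lists 2 pseudogenes of PSME2, and how the counting treated such copies is not given.

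The other activators differed from PSME1. PSME3, which forms the nuclear activator related to PSME1 and PSME2, stood at 92.3, 103, 309 and 103 CPM, 3.35-fold (3.09 to 3.63) and 3.01-fold (2.81 to 3.22) higher in miR-105 and within 1.12-fold of both controls in MYC. PSME4, a large single-chain activator, stood at 120.0, 167, 226 and 134 CPM, 1.89-fold (1.74 to 2.04) over vector but 1.35-fold (1.26 to 1.44) over GFP in miR-105. The inhibitor PSMF1 stood at 119, 113, 174 and 143 CPM, 1.46-fold (1.34 to 1.59) and 1.54-fold (1.43 to 1.67) higher in miR-105. All 3 were above both controls in miR-105, and PSME3 alone passed the threshold.

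By count, 0 of 5 immunoproteasome genes were called higher in miR-105 and 1 lower, against 23 of 31 constitutive subunits higher and 0 lower. In MYC, 3 of 5 immunoproteasome genes were called higher against 2 of 31 constitutive subunits. Against GFP alone these counts in MYC were 5 and 9, and with library totals in place of TMM 4 constitutive subunits were called. No share of all genes is given for these settings, so these counts have no background beside them. At any size, 5 of 5 immunoproteasome genes were above both controls in MYC (41.6% of all genes tested) and 30 of 31 constitutive subunits in miR-105 (43.4% of all genes). Without PSMB9, the immunoproteasome median of the log2 difference was 0.69 in MYC, with 2 of 4 called, and -0.031 in miR-105. The immunoproteasome median in miR-105 takes either sign with the scaling and the control used, and the constitutive median in MYC was -0.091 against the vector library and 0.29 against GFP. At a threshold of 2-fold, 16 members were higher in miR-105 (14.7% of all genes) and 0 lower (16.6%), and in MYC 2, PSMB8 and PSMB9, were higher (9.03%) and 0 lower (10.4%).

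The count test takes both controls as 1 group, which leaves 1 residual degree of freedom and compares these libraries rather than conditions. At an adjusted p (Benjamini-Hochberg over all genes) under 0.05, edgeR's quasi-likelihood test called 23 of the 28 higher members in miR-105 (19.5% of all genes) and PSME1 lower (19.8%). For PSMG1 edgeR's adjusted p was 3.4e-08, for PSMD14 1.5e-07 and for PSME1 0.014. DESeq2 called 16 of the 28 (12.9% of all genes) and PSME1 (14%). In MYC, edgeR called PSMG1 (adjusted p 0.023), PSMB8 (0.0045) and PSMB9 (4.9e-14), 3 of the 6, where 10.9% of all genes were called higher, and DESeq2 called PSMB9 alone (5.63% of all genes). Since PSMB9 was tested only because its level in MYC carried it past the filter, its adjusted p is no independent support, and without it edgeR called 2 members. Neither tool called a member lower in MYC, where 11.8% and 8.43% of all genes were called lower.

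The library labelled MYC was also set against the library labelled miR-105, which uses no control. Here 3 members were at least 1.5-fold higher, PSMB9, PSME1 and PSMB8, and 30 were at least 1.5-fold lower, against 29.3% and 30.3% of all genes tested. PSMB9 was 11.8-fold (6.09 to 26.3), PSME1 3.25-fold (2.87 to 3.68) and PSMB8 2.38-fold (1.98 to 2.87) higher. The constitutive median of the log2 difference was -0.90, with 23 of 31 lower, and the immunoproteasome median was 1.23, or 0.88 without PSMB9. The 3 members called higher were all immunoproteasome genes. PSMB9 passed the level filter only through the library labelled MYC, so its call here, at 1.5-fold or 2-fold, is no independent support. Without PSMB9, 2 of 4 immunoproteasome genes were called higher at 1.5-fold. At any size, 38 of 46 members were lower and 8 higher (52.1% and 47.8% of all genes), and at 2-fold 16 were lower and 3 higher (19% and 19.8%). Among the constitutive roles the base of the cap was furthest down, with a median of -1.47, and the beta subunits least, at -0.38.

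The controls themselves differed for these genes. In GFP against the vector library, 0 of 46 members were at least 1.5-fold higher and 2, PSMD4 and PSMG3, at least 1.5-fold lower, where 13% and 6.99% of all genes passed. No member passed 2-fold in either direction (3.06% of all genes higher and 1.03% lower). At any size, 38 of 46 members were lower in GFP and 8 higher, against 47.1% and 52.8% of all genes tested, and the median log2 difference was -0.30 against 0.034 for all genes. Most folds above are accordingly larger against GFP than against the vector library.

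The pair shares do not depend on the scaling of libraries. For each interchangeable catalytic pair, the reads of the immune subunit were expressed as a share of the reads of both genes, with exact binomial 95% intervals. PSMB8 took 19.1% (17.0 to 21.4) of the PSMB8 and PSMB5 reads in the vector library, 18.5% (16.6 to 20.6) in GFP, 11.8% (10.0 to 13.7) in miR-105 and 29.3% (27.3 to 31.3) in MYC. The intervals of the controls overlapped, and those of miR-105 and MYC lay outside them on opposite sides. A share moves with either gene of its pair. In miR-105 PSMB8 itself lay between the controls in CPM (23.1 against 25.7 and 19.6), while PSMB5 was above both (173 against 109 and 86.0). The odds of PSMB8 against PSMB5 in MYC were 1.75 times (1.47 to 2.08) those in the vector library and 1.82 times (1.54 to 2.15) those in GFP. In miR-105 they were 0.564 times (0.448 to 0.708) and 0.587 times (0.469 to 0.732).

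PSMB9 took 0.723% (0.197 to 1.84) of the PSMB9 and PSMB6 reads in the vector library, 1.72% (0.860 to 3.05) in GFP, 1.73% (0.796 to 3.27) in miR-105 and 24.0% (20.9 to 27.2) in MYC. The odds in MYC were 43.2 times (16.4 to 161) those in the vector library and 18.0 times (9.70 to 37.2) those in GFP. This pair was therefore almost wholly PSMB6 in 3 libraries and close to the share of the other pairs in the library labelled MYC. PSMB10 took 20.2% (18.0 to 22.6), 18.8% (16.7 to 21.0), 15.5% (13.1 to 18.1) and 23.3% (21.1 to 25.7) of the PSMB10 and PSMB7 reads. The order of the libraries was that of the first pair, but the odds in MYC over vector, 1.201 (0.989 to 1.46), and in miR-105 over GFP, 0.793 (0.623 to 1.00), had intervals that reached 1.

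**Figure D3:**
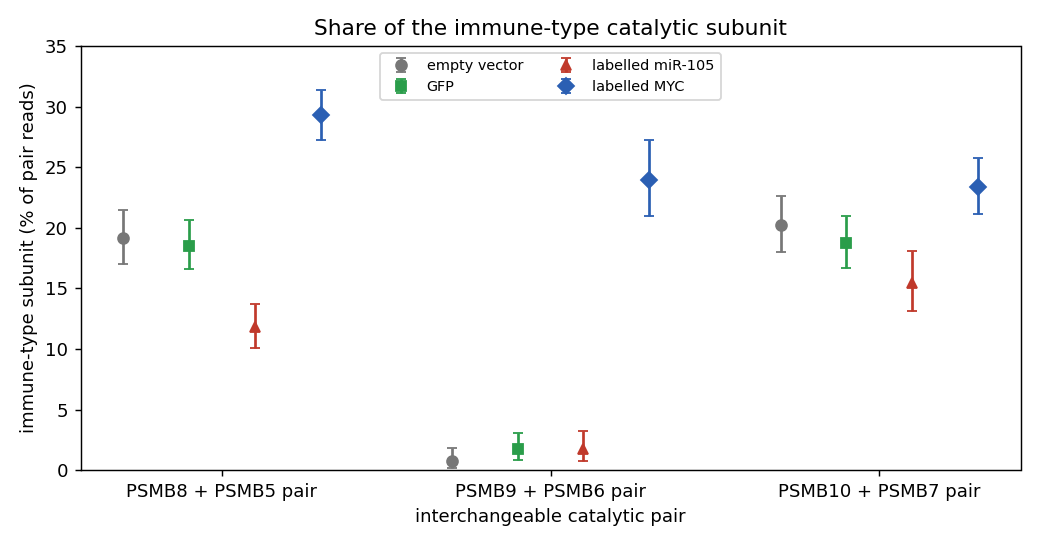
Share of the immune-type subunit in the reads of each interchangeable catalytic pair (percent), with exact binomial 95% intervals that cover counting error only, 1 point per library. The library labelled MYC was highest in all 3 pairs, and PSMB9, under 2% of its pair in the other 3 libraries, stood at 24.0% there.

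Levels of different genes were compared per kilobase of transcript. In the vector library, constitutive subunits ran from 13.0 CPM per kb (PSMD12) to 138 (PSMB4), with a median of 48.4. The highest and lowest were PSMA7 at 115 and PSMA4 at 17.5 among the alpha subunits, PSMB4 at 138 and PSMB2 at 28.1 among the beta subunits, PSMD4 at 90.7 and PSMC1 at 18.8 in the base, and PSMD8 at 115 and PSMD12 at 13.0 in the lid. The constitutive mRNAs thus spanned 10.6-fold per kilobase of transcript. Per kilobase of coding sequence they spanned 5.93-fold, from PSMD1 at 30.6 to PSMA2 at 182 CPM per kb. The immunoproteasome ran from PSMB9 at 0.553 to PSME1 at 117 CPM per kb, and in the library labelled MYC from PSMB9 at 21.3 to PSME1 at 154.

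The balance of core and cap differed between the libraries. The median of the 14 core subunits was 1.74 times that of the 17 cap subunits in the vector library, 1.62 times in GFP, 1.42 times in miR-105 and 2.45 times in MYC, all in CPM per kb. Per kilobase of coding sequence the ratios were 1.99, 1.76, 1.603 and 2.67, in the same order. As a share of reads, which needs no scaling, the core genes took 44.7% (44.1 to 45.3) of core and cap reads in the vector library, 42.0% (41.4 to 42.5) in GFP, 38.9% (38.4 to 39.4) in miR-105 and 51.9% (51.3 to 52.5) in MYC. By all 3 measures core mRNA was highest relative to cap mRNA in the library labelled MYC and lowest in the library labelled miR-105. By amount both were highest in miR-105, where the core genes summed to 2001 CPM (1451 in MYC) and the cap genes to 3143 (1344 in MYC). The intervals of the shares did not overlap, those of the controls with each other included. They cover counting error only and not the spread between cultures.

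**Figure D4:**
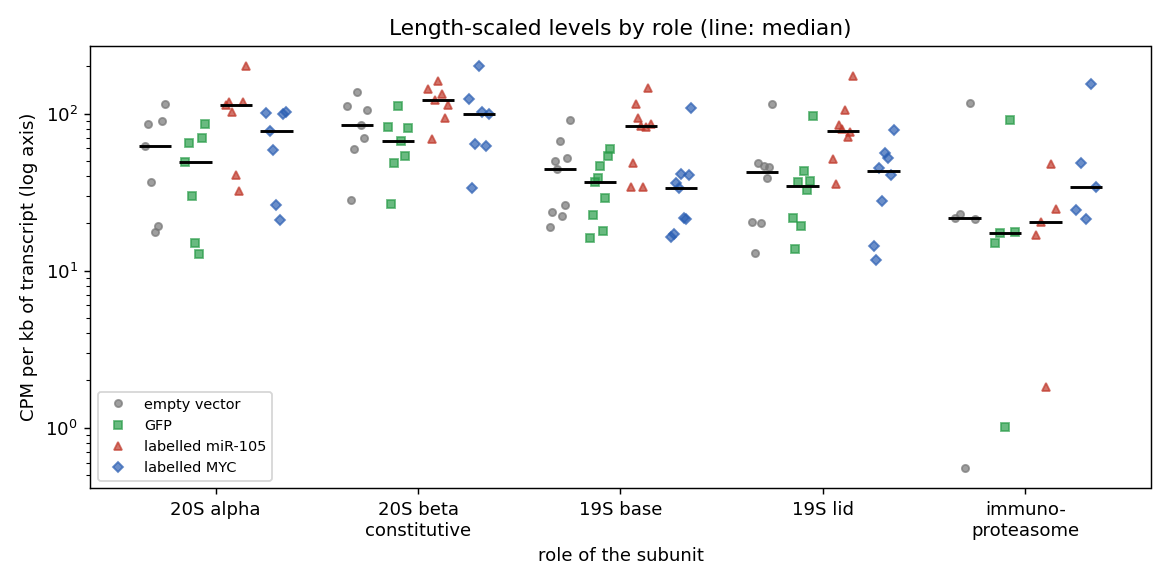
Levels in CPM per kilobase of transcript (log axis) by role, with 1 point per gene and library and a line at the median. The library labelled miR-105 has the highest median in the 4 constitutive roles, while in the immunoproteasome the library labelled MYC does.

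Mature miR-105 has 2 arms, copied from RefSeq with the seed (bases 2 to 8) in capitals, and shown so that the members could be searched for matches to them.
hsa-miR-105-5p: uCAAAUGCucagacuccuguggu
hsa-miR-105-3p: aCGGAUGUuugagcaugugcua

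Both are encoded at 2 loci on chromosome X. Matches to the 5p arm in the sense strand of the longest annotated 3′ UTR, GCATTTG or CATTTGA, were found in 6 of 46 members (PSMA4, PSMC2, PSMD12, PSMD5, PSME4 and PSMG4), 13.0%, against 27.7% of 12085 genes. The median UTR of the members was 358 bases against 1331 for all. No member matched the 3p arm (2.56% of all genes). The median log2 difference in miR-105 was 0.95 for the 6 members with a match and 0.85 for the others. Over all genes scanned it was 0.088 with a 5p match and -0.020 without, so genes with a match were not lower there either. These differences were not tested. PSME1, the member called lower in that library, had no match to either arm.

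Genes around the proteasome were read from lists outside the symbol rule. Beside the counts that follow, 24% of all genes were called higher and 24.7% lower in miR-105, and 16.6% and 17.2% in MYC. Of 19 cofactors tested, 6 were called higher in miR-105 and 0 lower, the first a share close to that of all genes. The deubiquitinases of the cap led, UCHL5 at 23.2, 26.1, 94.7 and 48.2 CPM and USP14 at 70.4, 89.9, 229 and 76.1 CPM, and UCHL5 was also the 1 cofactor called higher in MYC. Of 8 regulators, 1 was called higher and 2 lower in each of the libraries labelled miR-105 and MYC. NFYB, a subunit of the factor that binds the CCAAT box, stood at 434, 389, 29.8 and 46.1 CPM. NFE2L1, a transcription factor that drives proteasome genes when the proteasome is impaired, stood at 1304, 1519, 341 and 740.0 CPM. Both were called lower in miR-105 and in MYC. The regulator called higher in miR-105 was NFYA, a subunit of the same factor as NFYB, at 23.7, 35.4, 59.4 and 50.1 CPM, and in MYC it was STAT3, at 188, 238, 197 and 361 CPM, both named after their values were seen.

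Class I presentation genes, which load and display peptides such as those the proteasome makes, were compared as a list of 16. In MYC 8 were called higher and 0 lower, with a median log2 difference of 0.79, and in miR-105 3 were higher and 5 lower, close to the shares of all genes, with a median of -0.35. NLRC5, the transactivator of class I genes, stood at 1.51, 1.16, 6.27 and 46.0 CPM, HLA-B at 50.9, 55.7, 23.2 and 279 CPM, and TAP1 at 46.7, 44.1, 40.2 and 197 CPM. These 3, the largest differences of the list in MYC, were thus highest in that library, as PSMB8 and PSMB9 were. At any size, 13 of the 16 were above both controls in MYC (41.6% of all genes tested). The 1 below both (39.4% of all genes) was TAP2, at 120, 167, 216 and 109 CPM.

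Of 16 interferon gamma axis genes tested, 5 were called higher and 3 lower in MYC, and 2 higher and 9 lower in miR-105. CIITA, 1 of the 5, had 4, 0, 0 and 45 reads and passed the level filter only through the library labelled MYC. Its call is therefore no independent support. The share called lower in MYC was close to that of all genes. The receptor chain IFNGR2 stood at 49.6, 52.6, 67.3 and 136 CPM and the transcription factor IRF1 at 35.8, 37.2, 21.6 and 87.5 CPM, both highest in MYC. STAT2 stood at 172, 200.5, 28.2 and 94.8 CPM and the interferon-induced GTPase gene GBP2 at 135, 134, 1.88 and 132 CPM, so this list did not move as 1 block with the immunoproteasome. No read of the interferon genes IFNG and IFNB1 was counted in any of the 4 libraries. A count of 0 still allows up to 3 reads per library.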

How the data were processed

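Per the submitters' processing notes, TopHat2, edgeR and hg19 were used, without versions. The counter, the annotation and any use of strand are not given. What the authors deposited was a signal adjusted for depth, where the design had assumed raw counts. It had the properties of edgeR's pseudo-counts, by which libraries are moved to a common size. Inverting them at a dispersion of 0.0553 gave whole reads for 100% of values (relative tolerance 1e-05). After 19 repeated lines were dropped, reads were scaled by total and TMM factor (edgeR 4.0.16, R 4.3.3), so that 1 read was worth 0.0722 (GFP) to 0.157 CPM (miR-105). Genes averaging 1 CPM or more were compared after adding 0.5 CPM, and a call needed 1.5-fold in 1 direction against the vector and the GFP library.

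With 1 library per group no test was the main result. Ratio intervals are exact conditional binomial (Clopper-Pearson) and cover counting error only, since each group is 1 library. Without molecular identifiers reads can be copies of a molecule, for which the intervals make no allowance. Count tests with edgeR and DESeq2 1.42.0 on the recovered reads, the controls taken as 1 group, called 4910 and 3357 genes in miR-105 and 2828 and 1756 in MYC.

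Members and lists were chosen with earlier results of these data known. Values were printed for the immunoproteasome genes and their counterparts, members called in either library (the 12 largest where over 20), and the highest and lowest of each role per length. Genes outside the family were chosen among the 3 largest differences of a list, and 1 list is not reported here. The microRNA search was added after values were seen. Transcript lengths and positions are of GENCODE 29 (GRCh38), while the files' build is hg19. Alternatives were library totals, DESeq2 size factors, other filters, pseudocounts and folds, the values as deposited, each control alone and coding length.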

Additional observations from a re-analysis of the deposited data

How the results depend on the processing

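With 1 library per construct, culture-to-culture spread cannot be estimated, and the smallest library (miR-105) limits precision for low genes, PSMB9 above all. No paired analysis was possible because each group held 1 library. No called member changed direction under any alternative run. In miR-105, where 28 members were higher and 1 lower, 2-fold left 16 and 0, and DESeq2 16 higher. The constitutive median log2 difference (1.01) was 0.85 against vector alone and 1.196 against GFP alone. The immunoproteasome median (0.038) turned to -0.065 with library totals, -0.031 at 5 CPM or more and -0.16 against vector alone. In MYC, where 6 were higher and 0 lower, 2-fold left 2 higher, edgeR 3 and DESeq2 1. Against GFP alone 16 were higher and 1 lower, and against vector alone 1 was lower. Shares of all genes are given only for the main setting, the 2-fold threshold and the count tests. Counts under other settings here have no such share beside them. The constitutive median there (0.10) was -0.091 against vector alone and 0.29 against GFP alone. In GFP against vector, where 2 were lower and 0 higher, 4 were lower with DESeq2 size factors and with the values as deposited, 0 at 2-fold, and 1 was higher with a pseudocount of 0.1. In MYC against miR-105, library totals gave 5 higher (3 before) and a constitutive median of -0.69 (-0.90 before), 5 CPM or more gave an immunoproteasome median of 0.88 (1.23 before), and 2-fold left 16 lower (30 before). Over all genes, the count test called 1756 genes in MYC with DESeq2 and 2828 with edgeR. Of the constitutive subunits called higher in miR-105 (23), 13 passed 2-fold, as did 14.7% of all genes. Every other count over all members stayed within 1.5 times, while some counts within the constitutive and immunoproteasome lists moved by more. Every other median kept its sign. The cause was not tested.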
